A study of Mus musculus with 29 samples.

Results

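MdC5 is 1 of 6 subtypes into which the authors divided the monocyte-derived cells (code MdC) of mouse brain after stroke. Its members are all cells of the brain libraries whose deposited annotation gives MdC as the parent type and MdC5 as the subtype: 1467 cells of 12553 monocyte-derived cells and of 55268 brain cells in all. The cells came from C57BL/6J mice in which the middle cerebral artery had been blocked for a time (stroke) or that had sham surgery, and were profiled by Drop-seq, a droplet method that counts transcripts per cell. Each brain library pooled 4 to 5 hemispheres, digested with papain in the presence of actinomycin D and other inhibitors, and held sorted leukocytes (high CD45), microglia and endothelial cells. Young males of 8 to 10 weeks gave 4 libraries each of sham at day 2, stroke at day 2 and stroke at day 14. From aged mice (17 to 20 months) there were 2 sham libraries at day 2, of 1 male and 1 female pool, 3 stroke libraries at day 2, of 1 male and 2 female pools, and 1 female stroke library at day 14. Sham at day 14 was not analysed here, so stroke at day 14 has its comparison with sham only at day 2. Each library is a pool, so p-values measure the spread between pools. Libraries held 1143 to 5121 cells and 819438 to 5855047 counts, the 8 young stroke libraries gave 100827 to 360156 summed counts of MdC5 each, and no 2 libraries shared more than 3 cell barcodes.

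Monocytes that enter injured brain tissue from the blood can turn into several kinds of macrophage or into cells that resemble dendritic cells. MHC class II molecules, such as the mouse pair of chains H2-Aa and H2-Ab1, hold peptides on the cell surface for recognition by helper T cells. H2-Eb1 encodes a further class II chain, and its protein was not measured here. The invariant chain Cd74 guides class II molecules through the cell, and H2-DM exchanges the invariant chain remnant for peptide. The coactivator Ciita is known to switch on the whole gene set through X and Y box elements in the promoters of these genes.

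MdC5 stood apart from the other monocyte-derived cells by these MHC class II genes. Expression is given as CPM, the counts of a gene summed over the MdC5 cells of a library and scaled to a total of 1000000, and ratios to the pooled other MdC cells of the same library are log2 values after adding 1 CPM. In the 10 libraries with at least 20 cells of both kinds, the median log2 ratio was 5.01 for H2-Eb1, 4.69 for H2-Aa, 4.51 for H2-Ab1, 3.68 for Cd74, 2.68 for H2-DMb1 and 1.61 for H2-DMa, and each was positive in all 10. The clusters were made from these same cells, so the ratios describe the subtype and carry no test. Of 1721 genes averaging 100 CPM or more, 101 (5.87%) were higher and 80 (4.65%) lower in MdC5 in all 10 libraries, with medians beyond a 2-fold ratio for 16 and 20 of them. The median ratio over the 1721 genes was 0.01.

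The RefSeq promoters of the leading genes are shown because the known class II elements can be read in them. Promoter windows ran from 250 bases before to 50 after each gene start (build GRCm38.p6, the assembly behind the mm10 build in the submitters' processing notes), and 2 motifs were searched on both strands: CTNGNAAC, the core letters of the X box, and TGATTGG, the Y box with its inverted CCAAT. H2-Ab1 and Ciita have no entry among these promoters. Cd74 was not looked up by name. H2-Eb1, H2-Aa and H2-DMb1 each held CTNGNAAC followed by TGATTGG on the strand of the gene, in capitals below, with 25 or 26 bases between them. The stretches are chr17:34305758-34305827 on the plus strand for H2-Eb1, chr17:34287852-34287922 on the minus strand for H2-Aa and chr17:34153079-34153149 on the plus strand for H2-DMb1, all upstream of the start.
H2-Eb1: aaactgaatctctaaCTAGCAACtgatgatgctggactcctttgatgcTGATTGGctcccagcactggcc
H2-Aa: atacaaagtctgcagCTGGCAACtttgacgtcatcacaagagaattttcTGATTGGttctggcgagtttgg
H2-DMb1: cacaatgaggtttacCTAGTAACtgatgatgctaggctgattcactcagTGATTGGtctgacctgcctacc
Of all 32851 promoter windows, 13.2% held CTNGNAAC and 7.82% held TGATTGG on either strand. The ordered pair, with TGATTGG starting 15 to 45 bases after the start of CTNGNAAC, was present in 17 windows (0.0518%), and the motif letters were settled with these 3 promoters in view. Those windows also included the class II gene H2-Ob and genes outside class II, such as Cks2, Dnmt1 and Net1. Neither of the 2 H2-DMa windows, nor any window of Tmem176a, Tmem176b or Apoe, held the pair. Cd74 was not among the genes whose windows held it.

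In single libraries the class II levels were high in MdC5 at every time. H2-Aa measured 4273, 3795, 5211 and 5759 CPM in the 4 libraries of stroke day 2 and 6109, 5260, 9246 and 5645 CPM in those of stroke day 14. H2-Ab1 measured 5714, 6305, 7000 and 7134 CPM at day 2 and 8564, 7556, 12034 and 10827 CPM at day 14. Cd74 was the most abundant of the set, with 9844, 10842, 8470 and 13804 CPM at day 2 and 14000, 15860, 22735 and 16379 CPM at day 14. The day 14 libraries lay above the day 2 libraries for H2-Ab1 and Cd74, while those of H2-Aa overlapped. In sham brain MdC5 was rare, with 13, 13, 4 and 7 cells, and H2-Aa measured 6653, 7786, 0 and 5133 CPM there. The library with H2-Aa at 0 was the one with 4 MdC5 cells, in which Cd74 measured 2319 CPM.

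H2-Aa was set beside that of the other MdC subtypes, dendritic cells (code DC), border-associated macrophages (code BAM) and microglia of the young stroke brain. Of these, DC alone had a mean above that of MdC5 at both times, and other cell groups were not compared. DC held 11912 ± 3140 CPM of H2-Aa at day 2 and 11509 ± 2524 CPM at day 14 (SD, n = 4 each), against 4759 ± 889 and 6565 ± 1821 CPM in MdC5. BAM, which line the brain's membranes and vessels, had 2471 ± 2000 CPM at day 2 and 6224 ± 2308 CPM at day 14, within reach of the MdC5 libraries. Of the other MdC subtypes, the highest mean at day 2 was that of MdC6, with 367 ± 311 CPM (SD, n = 3), and the highest at day 14 that of MdC4, with 837 ± 96.9 CPM (SD, n = 4). In microglia, H2-Aa averaged 47.2 CPM at day 2 and 29.4 CPM at day 14, a level for a cell type with little class II expression of its own.

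**Figure D1:**
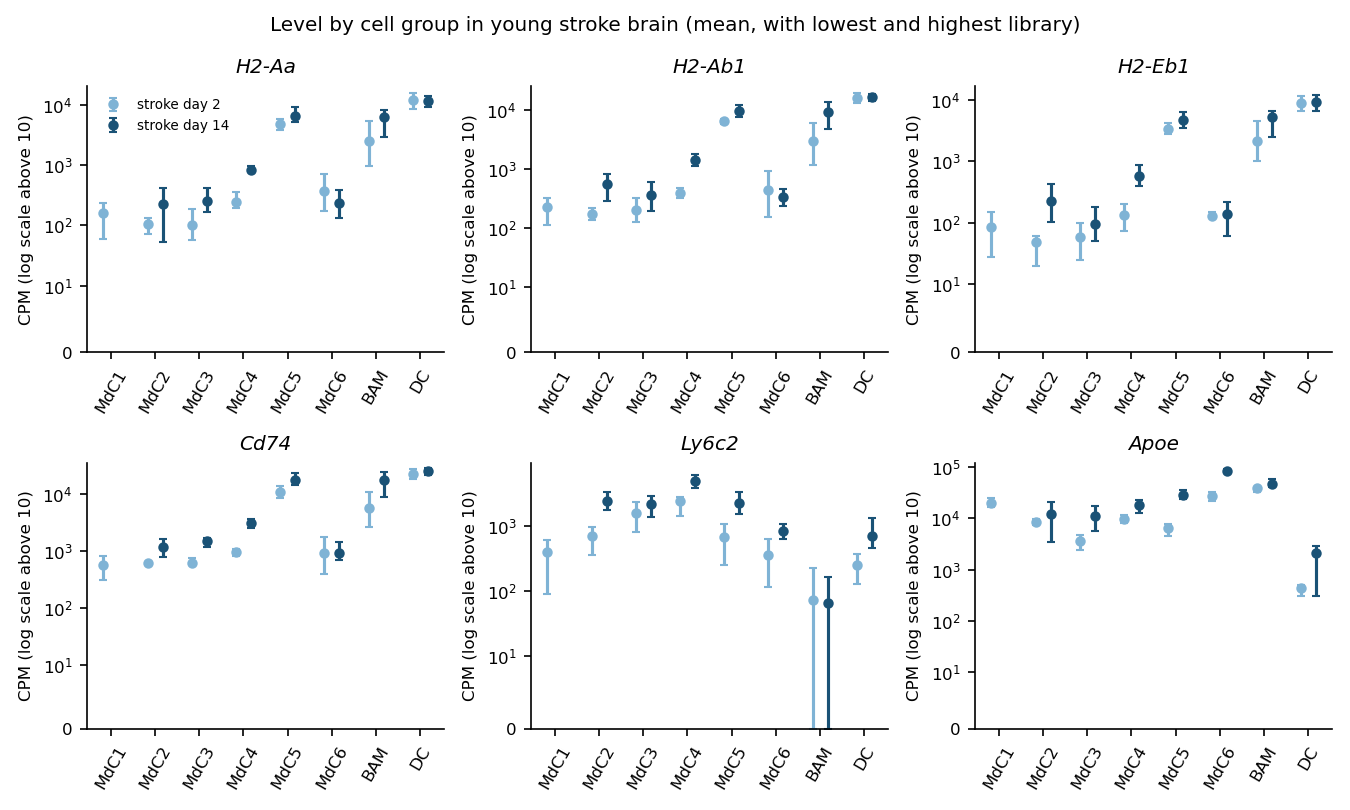
Levels (CPM, logarithmic above 10) of 4 MHC class II genes, Ly6c2 and Apoe in the MdC subtypes, border-associated macrophages and dendritic cells of young stroke brain. Points are means over libraries and bars run from the lowest to the highest library, for subtypes with at least 20 cells in at least 2 libraries. MdC5 sits above the other MdC subtypes for the class II genes and below the mean of DC, and its Apoe rises from 6440 to 28336 CPM between the 2 times.

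Class II expression varied among the MdC5 cells. H2-Aa, H2-Ab1, H2-Eb1 and Cd74 together made up a median of 1.58% to 1.79% of a cell's counts in the day 2 libraries and of 2.71% to 3.99% in the day 14 libraries. The medians of the 2 times did not overlap. At day 2 the 10th percentile of cells lay at 0.328% to 0.491% and the 90th at 4.40% to 7.34%, and 2.07% to 2.91% of MdC5 cells had no count of the 4 genes. At day 14 the 10th percentile ranged from 0.0957% in replicate 1, where 13 of 181 cells had none, to 1.35% in replicate 3. Of the other MdC cells at day 2, 7.94% to 10.3% lay above the 10th percentile of MdC5 in their library. At day 14 this share was 38.3% in replicate 1 and 6.12% to 10.4% in the other 3 libraries. The cells of MdC5 and of the other subtypes thus overlapped in these genes, and the authors' label was kept as the boundary.

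The label was checked against markers of monocytes, macrophages and dendritic cells. Ccr2, the chemokine receptor by which monocytes leave the bone marrow, measured 1295 to 1452 CPM at day 2 and 1906 to 2514 CPM at day 14 in MdC5, against means of 931 and 1001 CPM in DC. The 12 classical monocyte markers summed to 4332 to 8386 CPM in MdC5 at day 2 and 6679 to 11385 CPM at day 14, against 3137 to 6649 CPM in DC over both times, so the day 2 range overlapped that of DC. Of these markers 5 were lower and none higher in MdC5 than in the other MdC cells in all 10 libraries (median log2 ratio -0.69). Over all 5916 genes at 20 CPM or more, 2.18% were lower and 2.06% higher in all 10. The monocyte gene Ly6c2 averaged 672 CPM in MdC5 at day 2, against 1561 CPM in MdC3, 2356 CPM in MdC4 and 245 CPM in DC. Apoe, which macrophages express strongly, averaged 6440 and 28336 CPM in MdC5 against 446 and 2077 CPM in DC. Of the 12 macrophage markers, 4 were lower and 1 higher in MdC5 than in the other MdC cells in all 10 libraries (median log2 ratio -0.55). Flt3, the growth factor receptor that marks the dendritic lineage, averaged 12.4 CPM in MdC5 and 176 CPM in DC at day 2, and 8.36 against 202 CPM at day 14. Zbtb46, a transcription factor of classical dendritic cells, was at 0 in all 4 day 2 libraries of MdC5 and averaged 1.81 CPM at day 14, against 16.8 and 34.0 CPM in DC. Cd209a, a lectin of dendritic cells derived from monocytes, averaged 25.1 CPM at day 2 and 104 CPM at day 14 in MdC5, against 522 and 631 CPM in DC. Xcr1, a marker of cross-presenting dendritic cells, was at 0 in all 8 libraries. The 12 dendritic markers summed to 2156 to 3461 CPM in MdC5 at day 2 and 2973 to 4228 CPM at day 14, near the 2000 to 2900 and 2753 to 4246 CPM of the other MdC cells and below the 7088 to 23792 CPM of DC. Most of that sum was Cst3, an inhibitor of proteases found in many myeloid cells, with means of 2374 and 3094 CPM in MdC5. Of the 5 dendritic markers at 20 CPM or more, 1 was higher and 0 lower than in the other MdC cells in all 10 libraries (median log2 ratio 0.18).

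Across the 6701 genes at 20 CPM or more in any MdC subtype, the summed MdC5 profile had its highest correlations with MdC4 (Pearson r = 0.949 of log2 values, across genes) and MdC2 (r = 0.933). The value was 0.883 with DC and 0.849 with BAM. These profiles share libraries, and genes are not independent replicates. Median depth did not set MdC5 apart: its median of 476 to 1554 counts per cell in the young stroke libraries had ranks 2 to 5 among the 6 subtypes of a library.

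The remaining genes of the subtype belonged to several groups. Genes higher in MdC5 in all 10 libraries included the paired membrane channels Tmem176b (median log2 ratio 1.69) and Tmem176a (1.59), the arginine-synthesis enzyme Ass1 (1.48), the survival factor Bcl2a1d (1.46), the chemokine Cxcl16 (1.25), which is the ligand of Cxcr6, the potassium channel Kcnn4 (1.19) and the lectin receptor Clec4n (1.19), which recognises fungal sugars. The proapoptotic Pmaip1 (1.03), the heat shock gene Hspa1a (0.96), the receptor Slamf7 (0.94), the lysosomal thiol reductase Ifi30 (0.83), which prepares antigens for class II loading, the maturation marker Cd83 (0.76), the vesicle protein Syngr2 (0.76) and Ly6i (1.37) completed the 20 highest. These ratios are to the pool, and single subtypes could be higher: Cd83 averaged 400 CPM in MdC5 and 532 CPM in MdC6 at day 2, and 810 CPM in MdC5 and 895 CPM in MdC2 at day 14. Ly6i and Ly6c2 belong to a family of similar genes, and Bcl2a1d has close copies, so their counts may be shared among relatives.

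Genes lower in MdC5 in all 10 libraries were led by Chil3, a chitinase-like protein of monocytes (median log2 ratio -2.71), Gpnmb, a glycoprotein of lipid-laden macrophages (-2.58), the fatty acid carrier Fabp5 (-2.46), the glutathione transferase Mgst1 (-2.23) and the matrix cytokine Spp1 (-2.12). The proteoglycan Vcan (-1.63), the clotting factor subunit F13a1 (-1.35), the lysosomal Pld3 (-1.28), the monocyte attractant Ccl2 (-1.22) and the protease Ctsl (-1.18) followed. Spp1 averaged 2223 ± 1480 CPM in MdC5 and 12246 ± 7375 CPM in the other MdC cells (SD, n = 10). The lower value was not particular to MdC5. At day 2 Spp1 averaged 1961 CPM in MdC5, 577 CPM in MdC3, 14860 CPM in MdC1 and 12661 CPM in MdC6. At day 14 it averaged 2220 CPM in MdC5, 1086 CPM in MdC2 and 28430 CPM in MdC6. Gpnmb had the same lowest subtypes, MdC3 at day 2 (35.1 CPM, against 147 CPM in MdC5) and MdC2 at day 14 (83.7 CPM, against 353 CPM), and was highest in MdC6 at both times.

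By gene list, the ratio to the other MdC cells was raised for class II antigen presentation, with a median of 2.68 over its 11 members at 20 CPM or more, 7 of them higher in all 10 libraries. The median over all 5916 such genes was -0.02, and 2.06% of them were higher and 2.18% lower in all 10 libraries. Lists with lower medians were growth and matrix factors (-1.01 over 10 members, 2 lower in all libraries), lipid handling (-0.84 over 14, 5 lower), alternative activation (-0.65 over 10, 2 lower) and lysosome and phagosome (-0.57 over 14, 5 lower). Costimulation and checkpoint genes had a median of 0.35 over 9 members, with Cd86, a costimulatory ligand for T cells, higher in all 10 libraries (0.58) and Lgals9 lower in all 10 (-0.57). At day 14 Cd86 averaged 147 CPM in MdC5, 151 CPM in MdC4 and 290 CPM in MdC2, so the ratio to the pool did not hold against each subtype. Proliferation genes were mostly below 20 CPM, with 3 of 14 above it.

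MdC5 made up a larger share of the monocyte-derived cells at day 14 than at day 2, while its share of all cells hardly moved. In sham brain it was 13.1%, 13.8%, 4.88% and 16.3% of monocyte-derived cells, at stroke day 2 it was 8.87%, 8.55%, 11.1% and 9.74%, and at stroke day 14 it was 22.5%, 23.5%, 23.6% and 20.5%. All 4 day 14 libraries lay above all 8 others, while sham and day 2 overlapped. In edgeR's fit of cell numbers over the 6 subtypes, the share rose by 1.24 ± 0.27 on the log2 scale from day 2 to day 14 (SE, adjusted p = 0.000675) and was 0.94 ± 0.31 above sham at day 14 (adjusted p = 0.0147). With replicate number as a block, the latter missed the threshold (log2 0.95, adjusted p = 0.0501). The difference between day 2 and sham was -0.30 ± 0.31 (adjusted p = 0.360). Exact two-sided permutation tests, which cannot go below 0.0286 with 4 libraries against 4, adjusted over the 6 subtypes, gave p = 0.0343 for day 14 against day 2, 0.0429 for day 14 against sham and 0.371 for day 2 against sham.

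The result depended on the denominator. Between day 2 and day 14, MdC1 went from 31.5% ± 3.39 to 1.91% ± 1.24 and MdC2 from 28.8% ± 2.26 to 3.73% ± 1.21 of monocyte-derived cells, while MdC6 went from 2.84% ± 3.37 to 34.0% ± 1.26 (SD, n = 4 each). As a share of all cells of the library, MdC5 was 4.81% ± 1.61 at day 2 and 5.12% ± 1.49 at day 14 (SD, n = 4 each), a log2 difference of 0.09 (adjusted p = 0.825). Against sham, with 0.242% ± 0.107 of all cells, both stroke times were higher, by 4.29 and 4.38 on the log2 scale (adjusted p = 1.49e-07 and 2.36e-07). Of leukocytes other than microglia, MdC5 was 1.73% ± 0.859 in sham, 7.20% ± 0.877 at day 2 and 10.1% ± 2.32 at day 14, and the last 2 differed by 0.49 (adjusted p = 0.199). Shares of a sorted library depend on how many microglia and endothelial cells were sorted with the leukocytes. Counting only cells with at least 800 counts turned the value for day 14 against sham to 0.02 (adjusted p = 0.949) and that for day 2 against sham to -1.30 (adjusted p = 0.00638). Of the 37 sham MdC5 cells before that limit, it left 11, 5, 2 and 3 in the 4 libraries.

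**Figure D2:**
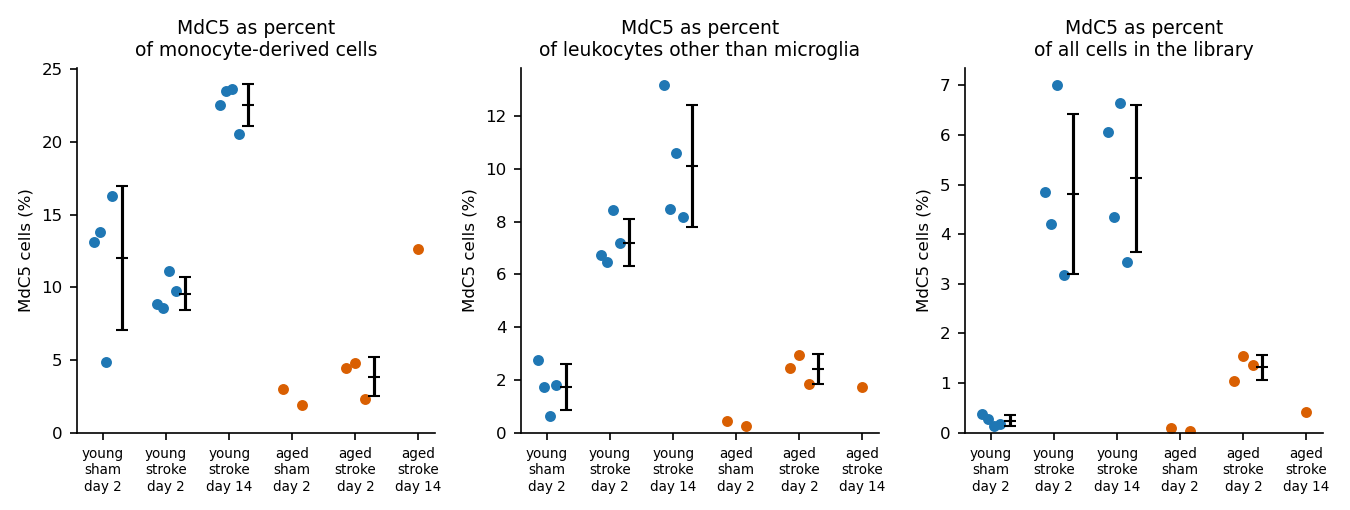
MdC5 cells as a percent of monocyte-derived cells, of leukocytes other than microglia and of all cells, by library (points) and group, with mean and SD for groups of 3 or more libraries. The day 14 libraries of young stroke brain (20.5% to 23.6% of monocyte-derived cells) lie above day 2 (8.55% to 11.1%) in the left panel and overlap with it in the right panel.

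In aged brain MdC5 was scarcer. It was 4.43% of monocyte-derived cells in the male library of stroke day 2 and 4.80% and 2.34% in the female libraries, all below the lowest young library of that day (8.55%). The difference of means was -5.71 percentage points, with an exact two-sided permutation p = 0.0286, the smallest that 3 against 4 libraries allow, and 0.171 after adjustment over the 6 subtypes. Of all cells, MdC5 was 1.32% ± 0.249 in aged stroke day 2 (SD, n = 3), against 4.81% in the young. The aged sham libraries held 1 MdC5 cell each (3.03% and 1.92% of monocyte-derived cells), and the aged day 14 library held 11 (12.6%). Young libraries were all male and the age groups were tabulated over different gene sets (19704 and 27514 genes), so age, sex and processing cannot be told apart.

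Between day 2 and day 14 in young mice, Apoe and its cholesterol partners Abca1 and Abcg1 rose in MdC5 cells, and Emp1, Ddit4 and S100a10 fell. Pooled over the 37 MdC5 cells of young sham brain, Apoe was at 12421.5 CPM, Abca1 at 89.7 CPM and Abcg1 at 37.1 CPM. Emp1 was at 0, Ddit4 at 294 CPM and S100a10 at 614 CPM in that pool. These sham values were not tested. With summed counts of the 4 libraries of each time, edgeR's quasi-likelihood test called 66 of 3177 genes (2.08%) at an adjusted p under 0.05, 32 higher (1.01%) and 34 lower (1.07%) at day 14. Among the gene lists, calls fell to 3 of 10 lipid handling and 3 of 14 early response genes, all higher, and to 3 of 11 hypoxia and glycolysis and 4 of 14 motility and adhesion genes, all lower, so most members did not pass. The libraries of the 2 times did not overlap for any of the 66, nor for 10.2% of all genes tested. Fewer cells of a kind inside MdC5 and less RNA per cell cannot be told apart in such sums. Depth was similar, with library medians of 722 to 1372 counts per cell at day 2 and 476 to 1554 at day 14 (exact permutation p = 1.00).

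Apoe, the lipid carrier secreted by macrophages, had the most abundant transcript among the genes that rose. It measured 4464, 6744, 7825 and 6728 CPM at day 2 and 24509, 27544, 35628 and 25664 CPM at day 14, so that all day 14 libraries lay above all day 2 libraries. The change was 2.17 ± 0.22 on the log2 scale (SE, adjusted p = 0.00119). The change did not differ from that in the pooled other MdC cells by the test described further on (difference 0.01, adjusted p = 0.998), but the pool gained MdC6 cells, with a mean of 84676 CPM at day 14. Against single subtypes the rise was larger in MdC5, by 1.34 against MdC4 (adjusted p = 1.05e-07) and 0.69 against MdC3 (adjusted p = 0.0440). MdC4 went from 9733 to 18148 CPM and MdC3 from 3608 to 10981 CPM. The mean of Apoe in microglia of the same libraries went from 2677 to 53325 CPM. The part of microglial transcripts in the value was not tested. In MdC5 of aged mice, Apoe measured 5587, 4367 and 3519 CPM in the stroke day 2 libraries. It measured 55.6 CPM in the 1 aged library of day 14, which held 11 MdC5 cells. In the same cells Apoc1, a small apolipoprotein and neighbour of Apoe, measured 3021 CPM, and C1qb 4328 CPM. The low Apoe value of this 1 library was not tested and is not read as a loss with age. In young mice Apoc1 rose from 12.5 ± 7.28 to 101 ± 56.3 CPM (SD, n = 4 each, log2 2.77, adjusted p = 0.0208). Abca1 and Abcg1, the pumps that pass cholesterol to lipoproteins, rose as well. Abca1 measured 50.9, 31.1, 21.1 and 4.78 CPM at day 2 and 166, 197, 100.5 and 106 CPM at day 14 (log2 2.38, adjusted p = 0.0219), and Abcg1 went from 108 ± 43.8 to 334 ± 70.5 CPM (log2 1.67, adjusted p = 0.0271). These 3 were the called members of the 10 lipid handling genes tested, whose median change was 0.44 against 0.01 over all genes. The list's fatty acid gene Plin2, at 783 CPM on day 2 and 477 CPM on day 14, was not called (adjusted p = 0.151).

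Early response transcription factors, which cells switch on within minutes of a stimulus, leaned one way: 14 of 14 tested members had positive changes, with a median of 0.64, and 3 were called. Fosb measured 132, 134, 73.5 and 66.4 CPM at day 2 and 562, 494, 261 and 383 CPM at day 14 (log2 2.17 ± 0.33, adjusted p = 0.0120). Egr1 rose by 1.98 (adjusted p = 0.0454) and Fos, from 1857 ± 307 to 3456 ± 563 CPM, by 0.94 (adjusted p = 0.0491). The list summed to 7718 to 10667 CPM in MdC5 at day 2 and 11197 to 16000 CPM at day 14. In the other MdC cells it summed to 6898 to 11154.5 CPM at day 2 and 9475 to 14125 CPM at day 14. Actinomycin D was in the dissociation solution of all brain libraries.

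Other genes that rose included surface molecules of myeloid cells. Ly6c2, part of the Ly6C antigen of inflammatory monocytes, measured 920, 248, 1063 and 456 CPM at day 2 and 2487, 1524, 3228 and 1718 CPM at day 14 (log2 1.78 ± 0.40, adjusted p = 0.0471), and its relative Ly6i rose by 2.27 (adjusted p = 0.0156). The other MdC cells averaged 967 and 2159 CPM of Ly6c2, and the log2 change in MdC5 was above theirs by 0.54 without passing the test (adjusted p = 0.0823). It was above that of MdC3 alone by 1.35 (adjusted p = 2.95e-06) and that of MdC4 alone by 0.76 (adjusted p = 0.0142). Clec12a, an inhibitory receptor for uric acid crystals, rose from 59.1 to 241 CPM on average. Calhm6, a membrane channel of activated macrophages (log2 2.10), the purine enzyme Lacc1 (1.97) and the semaphorin and VEGF receptor Nrp1 (1.83) completed the 10 named genes that rose. Ly6c2 was the only called one of the 10 classical monocyte markers tested, whose median was -0.16. The macrophage list had a positive change in 10 of 11 members tested and a median of 0.80, with only Apoe called. With replicate number as a block, 7 were called higher. By the test of differing changes described further on, 4 of 12 macrophage markers were more negative in MdC5 than in the pooled other MdC cells (C1qa, C1qb, C1qc and Cd63). None was more positive. Against MdC4 alone none of these 4 was called (0.25 to 0.63). Of 10 classical monocyte markers, 4 were more positive than in the pool and none more negative.

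Genes that fell were led by Emp1, a membrane protein of the epithelial membrane protein family. It measured 348, 160, 280 and 335 CPM at day 2 and 36.2, 35.9, 43.5 and 18.6 CPM at day 14 (log2 -2.93 ± 0.32, adjusted p = 0.00119). Ddit4, an inhibitor of mTOR signalling induced by stress and hypoxia, went from 211, 375, 282 and 338 CPM to 57.2, 42.2, 33.2 and 55.7 CPM (log2 -2.61 ± 0.31, adjusted p = 0.00224). Hilpda, a lipid droplet protein induced by hypoxia, went from 159, 264, 459 and 220 CPM to 50.8, 49.1, 41.7 and 89.5 CPM (log2 -2.27 ± 0.38, adjusted p = 0.0120). For all 3 genes the day 14 libraries lay below the lowest day 2 library. The hypoxia and glycolysis list had 3 of 11 tested members called lower and none higher, with a median of -0.94: Hilpda, the glycolytic enzymes Aldoa (-1.22, adjusted p = 0.0451) and Pkm (-1.10, adjusted p = 0.0344). This list also fell in the other MdC cells, from a sum of 3904 to 4908 CPM at day 2 to 1855 to 2790 CPM at day 14. By the test of differing changes described further on, 0 of its 13 tested members were called.

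The motility and adhesion list had 4 of 14 members called lower and a median of -0.95. S100a10 measured 933, 778, 1154 and 1126 CPM at day 2 and 217, 220, 393 and 383 CPM at day 14 (log2 -1.70 ± 0.27, adjusted p = 0.0120), and its membrane partner Anxa2 went from 1004 ± 227 to 333 ± 85.7 CPM (log2 -1.55, adjusted p = 0.0120). The intermediate filament Vim (-1.32) and S100a11 (-1.20) were the other called members. Cd24a, a surface glycoprotein, fell by 2.43, the protease inhibitor Timp1 by 2.62, the leukotriene receptor Ltb4r1 by 2.03, the interferon-induced Ifitm1 by 2.02, AA467197 by 1.89 and the lipid enzyme Agpat4 by 1.68. AA467197 was the most even of these at day 2, with 1344 to 1460 CPM, against 165 to 560 CPM at day 14. In the iron, haem and antioxidant list all 9 tested members had negative changes (median -0.81), and the metal-binding Mt1 was called (-1.38, adjusted p = 0.0471). The motility and adhesion list also fell in the other MdC cells, from a sum of 12091 to 18300 CPM at day 2 to 5277 to 7900 CPM at day 14.

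**Figure D3:**
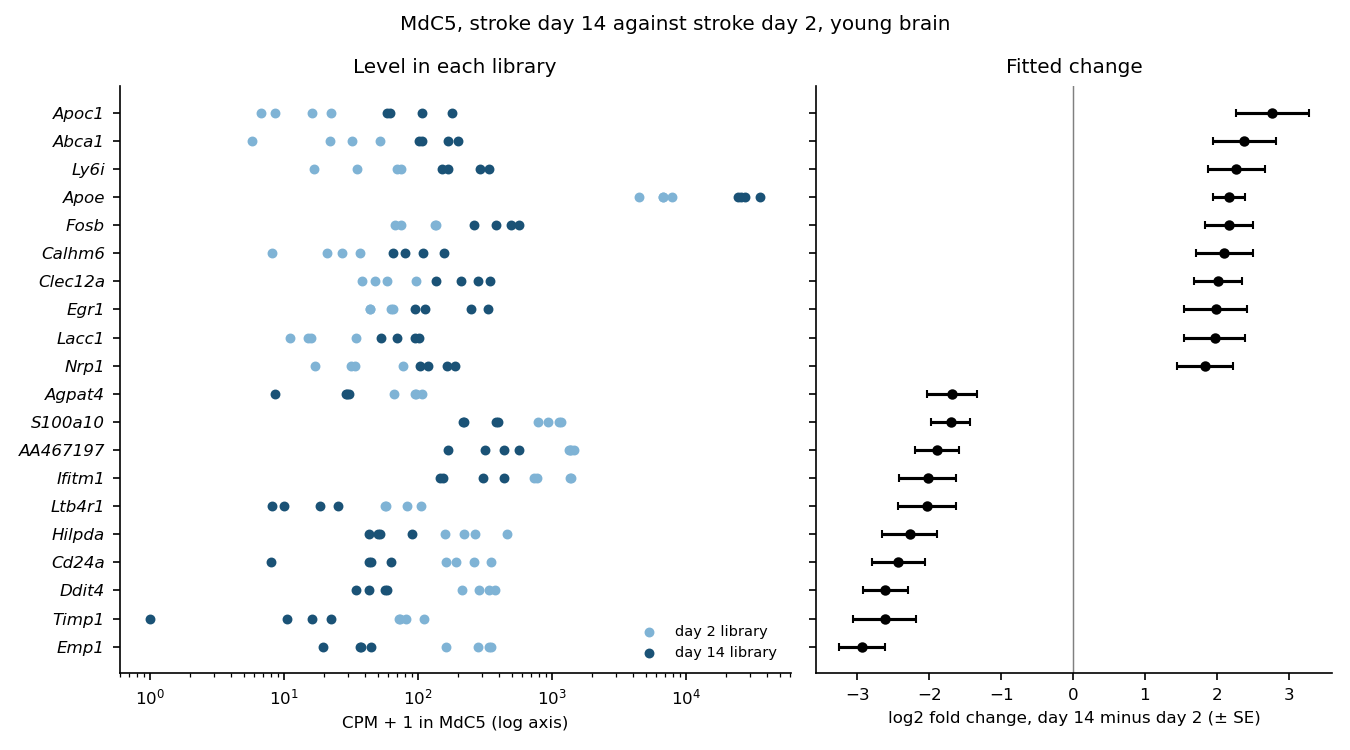
The 10 largest rises and the 10 largest falls in MdC5 between stroke day 2 and day 14 that the naming rule admits, which leaves out genes such as H2-Q7 and Il1r2 that another cell type holds at over 10 times the MdC5 level. Left, CPM + 1 in each library on a log axis, where the libraries of the 2 times do not overlap for any of the 20 genes, as the naming rule requires. Right, the fitted log2 fold change with its SE, from -2.93 (Emp1) to 2.77 (Apoc1).

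None of the 8 tested class II genes was called between the times. Their median change was 0.55 and 7 of 8 were positive: Cd74 changed by 0.71 (adjusted p = 0.133), H2-Ab1 by 0.61 (adjusted p = 0.153), H2-Aa by 0.49 (adjusted p = 0.327) and H2-Eb1 by 0.50 (adjusted p = 0.340). Ciita averaged 27.0 CPM at day 2 and 94.8 CPM at day 14, with no overlap of libraries (log2 1.72, adjusted p = 0.0517). With replicate number as a block, which pairs the libraries here, the same fit called 239 genes in place of 66, and 4 class II genes passed: Ciita (adjusted p = 0.00507), Cd74 (0.0143), H2-Ab1 (0.0229) and H2-DMa (0.0494). The interferon response list gave no call among 13 tested (median 0.41, 2 with the block), nor did that of inflammatory cytokines and chemokines among 11 (median -0.25, 3 with the block). Outside the interferon list, Ifitm1 was called lower, and Ifi211 (0.93) and Ifi213 (1.17) were called higher.

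The calls rest on all 8 libraries. Leaving out 1 library at a time left 3 to 20 calls; the fewest, 3, came without day 2 replicate 4 or without day 14 replicate 4. Apoe, Emp1 and Ddit4 were called in each of the 8 reduced fits. Some libraries lacked most mt-Rnr2 counts (up to 529 CPM over all cells, against 10021 to 26665 CPM in the others), among them replicates 1 and 2 of both times. Within these libraries alone the Apoe change was 2.28 and within the others 2.06. Each of the 20 named genes kept its direction in both, which the naming rule, asking for no overlap of libraries, nearly fixed in advance. Microglia markers in MdC5 summed to 267 to 1262 CPM at day 2 and 353 to 1747 CPM at day 14, over 12 genes of which none was at 0 in all libraries, and the part of such transcripts in the changes was not tested.

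The change from day 2 to day 14 in MdC5 was then set against that in the other MdC cells of the same libraries, with each library as a block. Of 5686 genes tested, 89 (1.57%) had a different change, 39 (0.686%) more positive and 50 (0.879%) more negative in MdC5. Class II genes were among the latter: 4 of 10 tested were called, and the list median was -0.48 against 0.00 over all genes. As the clusters were made from these same cells, the label itself may bound class II levels in both groups. Its part in these differences was not tested. H2-Eb1 differed by -1.38 ± 0.21 (SE, adjusted p = 3.36e-05), H2-Aa by -1.11 ± 0.16 (adjusted p = 1.05e-05), H2-Ab1 by -1.04 ± 0.16 (adjusted p = 3.36e-05) and Cd74 by -0.66 ± 0.14 (adjusted p = 0.00482). The log2 ratio of H2-Aa in MdC5 to the other MdC cells was 4.78, 5.34, 4.59 and 5.68 at day 2 and 3.97, 3.59, 4.29 and 3.98 at day 14, so that all day 14 libraries lay lower. In the other MdC cells the mean of H2-Aa was 144 CPM at day 2 and 413 CPM at day 14, still far under the levels of MdC5.

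The pool of other MdC cells held mainly MdC1 and MdC2 at day 2 and MdC4 and MdC6 at day 14, so changes of level and of subtype mix cannot be told apart in it. MdC3 and MdC4 were the only other subtypes with at least 20 cells in all 8 libraries. Against MdC4 alone the class II differences stayed, with H2-Aa at -1.24 (adjusted p = 3.63e-05), H2-Ab1 at -1.21 (adjusted p = 2.02e-05), H2-Eb1 at -1.55 (adjusted p = 0.00029) and Cd74 at -0.86 (adjusted p = 0.000111). Against MdC3 alone none of these 4 was called, with H2-Aa at -0.77 (adjusted p = 0.244) and H2-Ab1 at -0.25 (adjusted p = 0.837). Chil3, Saa3 and Cd24a were the 3 genes called against the pool, MdC3 and MdC4.

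Chil3 was the clearest of the genes with a more positive change. In the other MdC cells it went from 2355 ± 980 to 427 ± 270 CPM, while in MdC5 it measured 210, 176, 420 and 482 CPM at day 2 and 181, 108, 453 and 106 CPM at day 14 (difference 1.92 ± 0.20, adjusted p = 7.36e-09). The acute phase gene Saa3 went from 478 to 39.8 CPM on average in the other cells and was at 31.6 and 27.3 CPM in MdC5, with overlapping ratios (difference 3.42, adjusted p = 0.000174). These belong to the alternative activation list, of which 6 of 10 tested members were called more positive and none more negative: Chil3, Saa3, Arg1 (1.14), Thbs1 (1.10), Fn1 (0.94) and Mrc1 (1.23). The list summed to 1943 to 2652 CPM in MdC5 at day 2 and 1967 to 2632 CPM at day 14. In the other MdC cells it fell from 5891 to 7910 CPM to 2047 to 2762 CPM. Within MdC5 the means of Arg1 (358 to 153 CPM) and Fn1 (252 to 191 CPM) fell, while those of Thbs1 (532 to 663 CPM) and Mrc1 (52.3 to 142 CPM) rose. Saa3 and Mrc1 are given as members of that list: over the 8 libraries BAM held Saa3 at 25.3 times and Mrc1 at 30.1 times the MdC5 level, past the limit of 10 times that the naming rule sets. The part of transcripts from those cells in these differences was not tested. Of these 6, Chil3 and Saa3 were also called against MdC3 and MdC4 alone and the other 4 against neither. The neutrophil attractant Cxcl2 (1.29, adjusted p = 8.49e-07), Il1b (0.71) and the prostaglandin synthase Ptgs2 (0.97) were the called members of the 13 inflammatory genes tested. From day 2 to day 14 the MdC5 means went from 1774 to 1019 CPM for Cxcl2, 6967 to 7474 CPM for Il1b and 300 to 242 CPM for Ptgs2. Those of the other MdC cells went from 3738 to 887 CPM, 5490 to 3745 CPM and 501 to 203 CPM. Cxcl2 too is past that limit, at 10.1 times the MdC5 level in the cells that the authors label Gran. Against MdC4 alone Cxcl2 was at 0.88 (adjusted p = 0.000816) and against MdC3 alone at 0.73 (adjusted p = 0.0725). Il1b was called against neither (0.06 and -0.13), nor was Ptgs2 (0.83 and 0.04).

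Of the other 9 genes that the naming rule gives, with genes far higher in another cell type left out, Ms4a8a (1.74), Mgst1 (1.41), Sema4a (1.32) and Clec4a2 (1.25) were more positive in MdC5. More negative were the aminopeptidase Anpep (-3.13), the lysosomal galactosidase Glb1 (-2.51), Gpr137b (-1.86), the receptor Gpr171 (-1.84) and the chromatin protein Hmgn1 (-1.77), and Gpr137b has a near-identical copy, so its counts are uncertain. Against MdC4 alone Ms4a8a, Mgst1, Sema4a and Gpr137b were not called, and against MdC3 alone Ms4a8a, Sema4a, Clec4a2 and Gpr171 were not. Anpep, Glb1 and Hmgn1 were not tested in those fits. Gpr171 measured 77.9 ± 12.7 CPM at day 2 and 34.2 ± 16.2 CPM at day 14 in MdC5. Cd24a fell further in MdC5 than in the other cells (-1.67, adjusted p = 0.000202). Lysosome and phagosome genes had 4 of 13 called more negative (Ctsd, Cd63, Gpnmb and Hexa), and interferon response genes 5 of 14 (Ifit2, Ifit3, Rsad2, Cxcl10 and Bst2). None of these 9 was called against MdC4 alone, where Ctsd was at 0.33, Cd63 at 0.50, Gpnmb at 0.72, Hexa at 0.17 and Rsad2 at 0.09, all of the opposite sign, and the other 4 between -0.31 and -0.02. Against MdC3 alone Ctsd, Gpnmb and Ifit3 were called more negative. The summed microglia markers in the other MdC cells were at 280 to 958 CPM at day 2 and 379 to 2939 CPM at day 14, and the part of such transcripts in the pooled comparison was not tested.

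**Figure D4:**
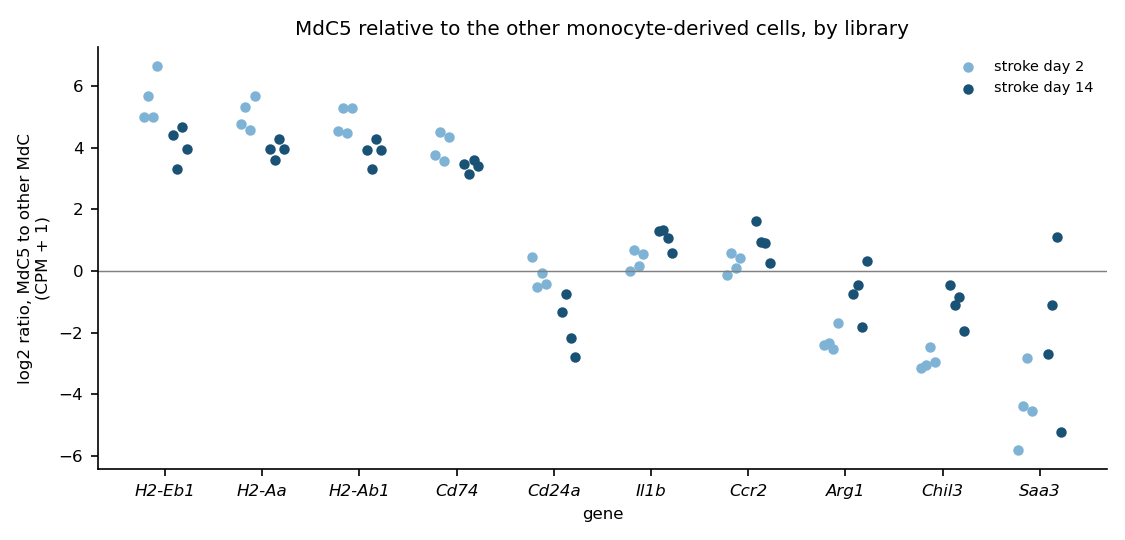
Log2 ratio of CPM + 1 in MdC5 to that in the other MdC cells of the same library, for 10 genes whose change between the 2 times differed. Each point is 1 library; H2-Eb1, H2-Aa and H2-Ab1 have lower ratios at every day 14 library than at day 2 (H2-Aa 3.59 to 4.29 against 4.59 to 5.68), those of Cd74 overlap, and Chil3 has higher ones.

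In aged mice at stroke day 2, MdC5 expression was compared over the 2 female libraries with at least 20 MdC5 cells (39 and 20) and the 4 young libraries. The male library, with 12, stayed out. No gene of 2855 (0.0%) was called by edgeR or by DESeq2, and 112 and 55 had an unadjusted p under 0.05. H2-Aa measured 5885 and 5527 CPM in the aged libraries (log2 difference 0.15 ± 0.27), and Cd74 9529 and 14322 CPM (0.03 ± 0.28), against the young ranges of 3795 to 5759 and 8470 to 13804 CPM. H2-Ab1, at 8085 and 8192 CPM, lay above the young range of 5714 to 7134 CPM and was not called (0.20 ± 0.23, adjusted p = 0.999). In simulated counts with these library sizes, over 2533 genes, 0 of 94 genes changed 2-fold and 23.3% of those changed 4-fold were recovered, so 2-fold differences were not detectable in this comparison.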

How the data were processed

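Drop-seq counts of 18 brain libraries were taken as deposited by the authors, with their cell annotation. The deposited values per gene and cell were handled like expected counts. Exactly whole values were 0.0388% to 4.47% of those above 0 in a library, while 38.2% to 86.6% had a fraction above 0.9, just under a whole number. How the authors made them is not given in the sources used here; with the values of each cell rounded up, 73 genes were called between day 14 and day 2 in place of 66. The authors' annotation also gives deposited counts of detected genes and the percent of mitochondrial counts per cell. The submitters' processing notes name Seurat and the mm10 build, and the aligner is not given in the sources used here. Expected counts were summed over the MdC5 cells of a library, and separately over its other MdC cells, rounded, and tested with edgeR 4.0.16 (quasi-likelihood, TMM, filterByExpr, Benjamini-Hochberg over all genes tested, threshold 0.05) in R 4.3.3, for libraries with at least 20 MdC5 cells. No sham library reached 20, so expression was not tested against sham. Numbers of cells were fitted with edgeR against the library's total of MdC cells, without TMM. The difference between changes was the interaction of subtype and time with the library as block. Exact permutation tests used scipy 1.17.1. DESeq2 1.42.0, other normalization and filters, single libraries left out, a replicate block and a split of the libraries by mt-Rnr2 were tried as alternatives. No label names that split, which was read from the counts. Same-numbered libraries of day 2 and day 14 had correlated deviations (0.33, 0.48, 0.68 and 0.16), which takes the numbers as pairs from the data, not from the labels. Libraries of different numbers gave -0.49 to 0.28, so the value for replicate 4 lay within their range. Among the stroke libraries the numbers also follow the mt-Rnr2 split, and the 2 cannot be told apart fully there. In sham they do not, as sham replicate 2 held 25294 CPM of mt-Rnr2. Named genes are the 20 highest and 10 lowest median ratios to the other MdC cells with 1 sign in every library (at least 100 CPM), the 10 highest and 10 lowest called changes between times without overlap (at least 20 CPM), the 5 highest and 5 lowest called differences between changes (at least 20 CPM), and members of the gene lists. The first 3 parts of this rule leave out predicted and mitochondrial genes, those of ribosomal proteins, haemoglobins, antibodies and T cell receptors, and genes that another cell type of at least 500 cells holds at over 10 times the MdC5 level. Members and lists were chosen with earlier results of these data known. In simulated counts for day 14 against day 2, over 2982 genes, 22.0% of genes changed 2-fold and 91.8% of those changed 4-fold were recovered. Scrublet marked 25 of 55268 cells as doublets, including 1 of the 1467 MdC5 cells, too few to be a working call, and no doublets were removed. Some genes of the marker lists are not reported here.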

Additional observations from a re-analysis of the deposited data

Results flagged for a closer look

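Among the named genes of day 14 against day 2, Agpat4 in day 14 replicate 4 measured 7.58 CPM, far below the 28.1 to 29.5 CPM of the other 3 libraries. Its gap was 0.938 of the group's range, above Dixon's critical value for 4 samples. In all, 49 groups were examined, and chance alone gives such a value in about 1 of 20.

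The change from day 2 to day 14 differed between MdC5 and the other MdC cells, by edgeR's test of the interaction, for the 10 genes named under the rule. The more positive ones were Chil3 (log2 1.92, adjusted p = 7.36e-09), Ms4a8a (1.74, adjusted p = 0.0098), Mgst1 (1.41, adjusted p = 0.00554), Sema4a (1.32, adjusted p = 0.0391) and Clec4a2 (1.25, adjusted p = 0.000715). The more negative ones were Anpep (-3.13, adjusted p = 0.00262), Glb1 (-2.51, adjusted p = 0.00617), Gpr137b (-1.86, adjusted p = 0.000715), Gpr171 (-1.84, adjusted p = 0.0158) and Hmgn1 (-1.77, adjusted p = 0.00912). The ratios of single libraries overlapped between the times for Mgst1, Sema4a, Clec4a2 and Anpep.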

How the results depend on the processing

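Each of the 20 genes named for day 14 against day 2 kept its direction under every alternative run. The naming rule admits only genes whose libraries do not overlap between the times. Leaving out or splitting libraries could therefore hardly turn a direction, and the kept directions are no separate support. The 66 calls became 239 with the replicate block (all 66 shared) and 132 with a term for the mt-Rnr2 split. Within the libraries with little and with much mt-Rnr2, where 2 libraries face 2, there were 0 and 1 (273 and 417 genes at an unadjusted p under 0.05). Leaving out 1 library gave 3 to 20 calls; DESeq2 gave 86. The 89 differences between changes became 43 with DESeq2, 41 against MdC3 alone and 53 against MdC4 alone, and 58 to 100 without 1 library. For the share of day 2 against sham, the log2 value of -0.30 became 4.29 over all cells, 2.08 over leukocytes other than microglia and -1.30 over cells with at least 800 counts. Day 14 against sham was 0.025 over those cells and 0.95 with the replicate block (adjusted p = 0.0501). Day 14 against day 2 was 0.090 over all cells and 0.49 over leukocytes. The causes of these shifts were not tested. For aged against young, leaving out 1 library gave share differences of -6.18 to -4.95 points, where the smallest possible exact p is 0.0667 or 0.1, and no alternative called a gene. Removing doublets was not run. For day 14 against day 2 in young mice, a limit of 50 cells, or a fit of only the 2 groups, left the same libraries in the expression fit. The smallest MdC5 sum held 100827 counts in that fit and 17652 in aged against young, and genes of low level were not testable.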
